A study of Mus musculus with 7 samples.

Results

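The genes of SR proteins and of heterogeneous nuclear ribonucleoproteins (hnRNPs) were followed through the RT stops of CIRS-seq, isoform by isoform, and through RNA-seq of the same cell line. Members were chosen by symbol alone: transcripts whose symbol begins with Srsf or Sfrs and a digit or with Hnrnp, and those of Tra2a and Tra2b. This gave 32 genes, 13 for SR and Tra2 proteins and 19 with an hnRNP symbol, of 13218 genes in the files, and 188 of 26827 transcripts. One of the 19 is the pseudogene Hnrnpa1l2-ps, and Sfrs18, a gene of a protein rich in arginine and serine that is now called Pnisr, entered through its older symbol. Hnrpll and Hnrpdl, the files' symbols for a pair of further hnRNP genes, lie outside the rule.

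SR proteins bind exonic enhancers through RNA recognition motifs and recruit the spliceosome through a domain rich in arginine-serine pairs. hnRNPs coat nascent RNA and often act against SR proteins at splice sites. Many genes of both families hold a deeply conserved exon or intron whose inclusion brings in an early stop codon, a "poison" exon, and the resulting RNA is degraded by nonsense-mediated decay (NMD). Several of the proteins bind their own pre-mRNA there and so limit their own level, which is why these genes are known for noncoding and intron-retaining isoforms.

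CIRS-seq probes RNA in a lysate of E14 mouse ESCs (strain 129/Ola) that was deproteinized with Proteinase K. Dimethyl sulfate (DMS) modifies unpaired A and C, CMCT modifies unpaired U and, less, G, and reverse transcription (RT) stops next to the modified base. The DMS libraries pool RNA treated at 50 to 200 mM, the CMCT libraries pool RNA treated at 10 to 50 mM, and the non-treated (NT) libraries pool the mock samples of both buffers. Each treatment has 2 libraries, which the study calls biological replicates, and RNA-seq has 1 library of ribosome-depleted RNA with no replicate. The genome build is NCBIM37 (mm9) throughout, with gene models of GENCODE vM1.

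The libraries held 181944556 to 338201940 RT stops over all listed transcripts. To keep pseudogenes and repeats apart from the genes, only positions whose following 25 bases occurred once in the genome, and in no transcript of another gene, were used for comparisons. They are called single-place positions here. They covered 75.9% of the 120830 positions of the 32 genes. With each genomic position counted once per gene, a library held 140186204 to 247369982 RT stops over all genes. Single-place positions held 6.58% to 9.79% of that total, or 10729780 to 19715573. The SR protein and hnRNP genes held 41866 to 127200 of the single-place stops, which was 0.390% to 0.650% of those of a library. Hnrnpa1 and Hnrnpa3, which have many processed copies, kept 8.36% and 8.62% of their positions. All 10 ES cell markers examined were present in RNA-seq, at 126 to 8966 alignments per 1000 bases, whereas of 7 fibroblast markers 1 was in the files, at 1.44, of 5 endoderm markers 0, and of 5 neural markers 2, at 17.2 and 397. In the lysate of many cells, fewer cells with an RNA and less of it per cell cannot be told apart.

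Of the 188 transcripts, 106 were annotated as protein-coding, 36 as processed transcripts, 28 as retained introns, 17 as NMD targets and 1 as a pseudogene. A listed transcript that was not protein-coding belonged to 20 of the 32 genes. Hnrnph1, whose protein binds G-rich RNA, had 18 transcripts, of which 15 were processed transcripts. Hnrnpl, a binder of CA repeats, had 15 with 7 retained introns, and Srsf11, Srsf5 and Hnrnpd had 14, 13 and 12. In contrast, Hnrnpa0 and Hnrnpul2 had 1 transcript each. A further 22 annotated transcripts with symbols that match the rule were not listed in the CIRS-seq files. They include those of 1 gene with no listed transcript, which is not among the 32. Every position was put in 1 of 3 classes. Coding positions lie in an exon of at least 1 protein-coding isoform, NMD-only positions lie in an NMD isoform and in no protein-coding one, and noncoding-only positions lie in a retained-intron or processed transcript and in neither of the other kinds. The pseudogene was put in no class. Since isoforms share most of their exons, these classes are where an RT stop can be told apart from spliced protein-coding isoforms. Most noncoding-only stretches lie in introns of protein-coding isoforms. Stops from unspliced precursor would therefore count there too, and their share was not tested.

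The genomic sequence shows where the paths of the isoforms part. At each of the following 6 exon ends, RT stops were found both on reads spliced as in a protein-coding isoform and on reads that took another path; these 6 ends had the most RT stops on the other path. Each line runs from the last bases of the exon into the intron, and the capitals mark the first 6 bases of the intron.
Hnrnph1 (chr11:50196802-50196831, plus strand): auaaagcaaauaugcGUAAGUgugauuaaa
Hnrnpd (chr5:100407396-100407425, minus strand): cgaggaggaugaaggGUGAGUaaggggcgg
Srsf1 (chr11:87862703-87862732, plus strand): uuuagaucucacgagGUAGGUuauacacuu
Hnrnpm (chr17:33814204-33814233, minus strand): ugguuaaagaaaaagGUAAUGguacuggug
Hnrnpl (chr7:29599292-29599321, plus strand): ucaggcuaugguggaAUAUCCuuuucuggg
Srsf2 (chr11:116713320-116713349, minus strand): cuuccuaagaaaaugGUAAUGucugcggga
Of these introns, 5 began with GU and that of Hnrnpl began with AU, as a subset of the introns removed by the minor spliceosome does. In Hnrnpl and Srsf2 the other path ran unspliced into the intron, whereas in the other 4 genes it was a junction to another splice acceptor, so that both paths used the bases shown.

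Classes were counted at single-place positions. These held 25.0% and 19.2% of the members' RT stops in NT, 40.9% and 36.5% in DMS and 45.4% and 43.0% in CMCT. A smaller share of the NT stops was thus counted. Coding positions made up 79.3% of the single-place positions and held 95.4% to 97.6% of the RT stops of a library, noncoding-only positions made up 17.8% and held 1.82% to 3.87%, and NMD-only positions made up 2.92% and held 0.544% to 0.881%. Per 100 bases, and not scaled for library size, coding positions had 85.7 and 55.7 RT stops in the NT replicates, 106 and 89.5 in DMS, and 170 and 120 in CMCT. Noncoding-only positions had 9.94 and 6.24 in NT, 9.56 and 16.2 in DMS, and 18.2 and 9.95 in CMCT. NMD-only positions stood between them, with 21.2 and 13.0 in NT, 19.0 and 17.4 in DMS, and 38.3 and 18.1 in CMCT. In every library the order was coding above NMD-only above noncoding-only.

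Within genes, 18 members had at least 50 single-place positions of both the coding and the noncoding-only class. In NT, noncoding-only positions had fewer RT stops per base than coding positions in 17 of these 18 (edgeR's quasi-likelihood test within libraries, Benjamini-Hochberg adjusted p under 0.05) and more in 0. Over all 2571 genes tested, 74.9% were lower and 13.5% higher. At an unadjusted p under 0.05 the member counts were also 17 and 0, and no other tool was run for this fit. The median log2 difference was -4.25 for the members and -3.64 for all genes, or -4.15 and -3.48 when the 2 members and 204 genes without an NT stop in the noncoding-only class were set to their bound of 3 counts over both NT libraries. As a percentage of the coding density, the noncoding-only density had a median of 5.27% and 5.01% in NT, 4.99% and 6.38% in DMS and 6.39% and 5.70% in CMCT. The medians over all genes were 7.03% and 7.40%, 6.73% and 7.37%, and 7.12% and 6.34%. The member count is read against the large share of lower genes in the whole file. Over all positions, single-place or not, 4 members turned to the other direction, namely Srsf2 (5.91), Sfrs18 (1.94), Srsf3 (1.19) and Hnrnph1 (0.49), and the first 3 of them passed the test as higher. In that setting 43.5% of 2736 genes were higher and 51.4% lower, so calls shifted over the whole file.

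**Figure D1:**
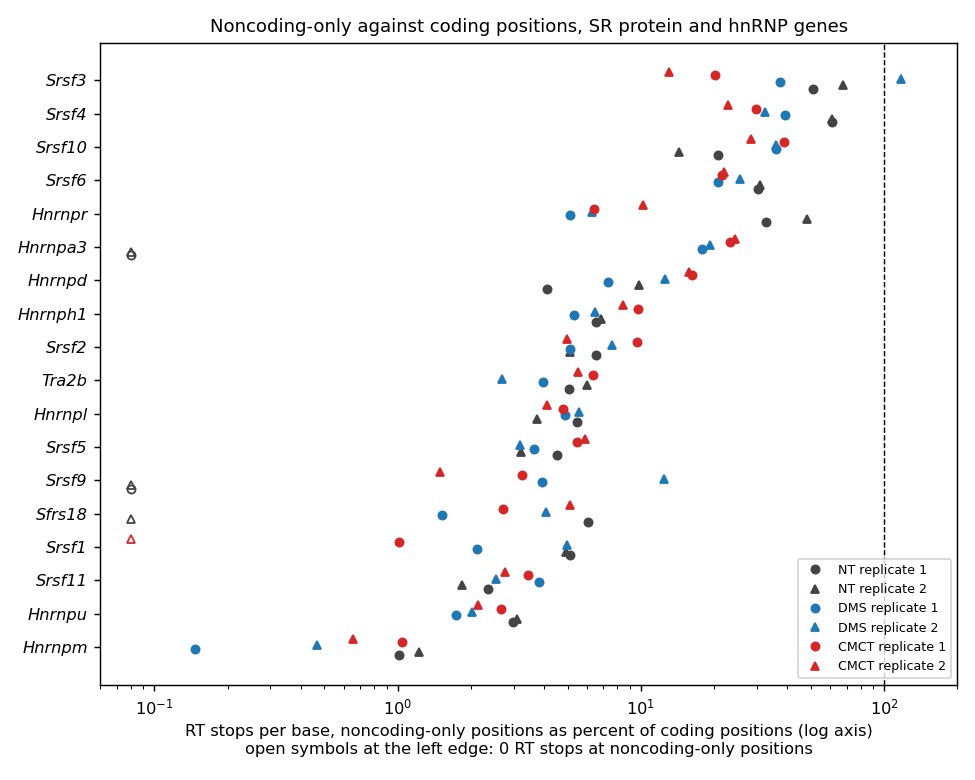
RT stops per base at noncoding-only positions as a percentage of those at coding positions (x axis, log scale) for the 18 genes with at least 50 single-place positions of each class, ordered by the mean over 6 libraries. Each gene has 6 points, 1 per library, colored by treatment and shaped by replicate, the dashed line marks equal density, and open symbols at the left edge stand for 0 RT stops. Srsf3 reached 117% in DMS replicate 2, and Hnrnpm stayed between 0.147% and 1.23%.

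The 10 highest ratios, averaged over the 6 libraries, belonged to Srsf3, Srsf4, Srsf10, Srsf6, Hnrnpr, Hnrnpa3, Hnrnpd, Hnrnph1, Srsf2 and Tra2b, and the plot of ratios by gene shows them in this order. Srsf3, the smallest of the SR proteins and a factor in mRNA export, was the member that did not pass the test. Its noncoding-only positions had 551 and 407 RT stops in NT, 578 and 1594 in DMS and 526 and 228 in CMCT over 1954 bases. Its coding positions had 621 and 345, 889 and 780, and 1503 and 1006 over 1123 bases. The noncoding-only density was thus 51.0% and 67.8% of the coding density in NT, 37.4% and 117% in DMS and 20.1% and 13.0% in CMCT. The log2 difference in NT was -0.77 ± 0.44 (SE, n = 2 libraries; edgeR adjusted p = 0.126). Of its coding positions, 1060 lay in the 3′ UTR and 20 in the coding sequence, because the rest of the coding sequence has copies elsewhere.

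A single retained intron held much of this signal. The noncoding-only part at chr17:29177759-29178151 had 400 and 308 RT stops in NT, 424 and 1441 in DMS and 181 and 65 in CMCT at its 272 single-place positions. Within these, 4 neighboring positions held 337 and 269, 389 and 1410, and 146 and 38, or 58.5% to 97.8% of the intron's single-place stops. Positions of the intron that are not single-place held a further 1046 and 887 in NT, 1066 and 902 in DMS and 2361 and 1512 in CMCT, so that the 4 positions made up 2.41% to 60.2% of all stops counted in the intron. Positions 29178002 to 29178007, directly after these 4, and position 29177996, shortly before them, were not single-place. Whether reads from similar sequences elsewhere in the genome were placed at the 4 positions was not tested. The densest of the 4 was the C at position 29178001, which the sequence of chr17:29177989-29178018 (plus strand) shows in capitals.
Srsf3 intron: agaagauggcauCugaucucacuacagaug
This C had 286 and 156 RT stops in NT, 242 and 376 in DMS and 121 and 21 in CMCT. The A at position 29177999 had 32 and 64 in NT, but 69 and 591 in DMS, so that the replicates of DMS lay far apart there. RNA-seq had 139.5 alignments per 1000 bases over the intron, against 565 and 517 over the noncoding-only stretches upstream of it. In an alternative chosen after these values were seen, the intron was left out. The log2 difference of Srsf3 in NT then became -2.50 ± 0.26 (edgeR adjusted p = 1.47e-05), and all 18 members were lower, beside 74.9% of 2571 genes. Without the intron, the noncoding-only density of Srsf3 was 16.2% and 19.2% of the coding density in NT, 11.6% and 13.1% in DMS and 15.3% and 10.8% in CMCT.

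Srsf4, Srsf10 and Srsf6 followed Srsf3. For Srsf4, a large SR protein with a long arginine-serine domain, the noncoding-only exon of 184 single-place bases at chr4:131440210-131440397 had 23 and 13 RT stops in NT, 24 and 15 in DMS and 22 and 11 in CMCT. These were 60.9% and 60.8% of the coding density in NT, 39.1% and 32.2% in DMS, and 29.7% and 22.8% in CMCT. Thus both NT libraries lay above all treated libraries. The difference in NT was -0.72 ± 0.28 (SE, n = 2 libraries; edgeR adjusted p = 0.0370) and passed by little, since leaving out either NT replicate gave adjusted p = 0.147 and 0.111 and leaving out either CMCT replicate gave 0.0667 and 0.0624. Srsf10, a splicing repressor when it is dephosphorylated, had 53 and 22 noncoding-only RT stops in NT, 88 and 88 in DMS and 157 and 76 in CMCT. Its ratio was 20.7% and 14.4% in NT, 35.9% and 35.8% in DMS and 38.9% and 28.4% in CMCT, so that the treated libraries lay above NT, but the changes were not past the threshold (edgeR adjusted p = 0.183 and 0.215). In NT the difference between the classes of Srsf10 was -2.50 ± 0.27. Srsf6 had 57 and 37 noncoding-only RT stops in NT, 46 and 43 in DMS and 84 and 61 in CMCT, all in 1 exon at chr2:162758551-162758818. Its ratio lay between 20.8% and 30.9%, and its NT difference was -1.71 ± 0.29.

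Among the hnRNP genes, Hnrnpr, a relative of Syncrip, had 8 and 8 noncoding-only RT stops in NT, 2 and 2 in DMS and 4 and 4 in CMCT over 85 bases. Its ratios of 32.7% and 48.1% in NT stood above the 5.11% to 10.2% of the treated libraries. Its NT difference was -1.34 ± 0.37 (SE, n = 2 libraries; edgeR adjusted p = 0.00691), which was 0.0779 without NT replicate 1. Hnrnpa3, a protein close to Hnrnpa1, had 0 noncoding-only RT stops in both NT libraries and 5 and 4 in DMS and 6 and 4 in CMCT over 75 bases. Its coding density in NT was therefore at least 5.15-fold higher, counting 3 stops over both NT libraries. Hnrnpd, which binds AU-rich elements and takes part in mRNA turnover, had 3 and 4 noncoding-only stops in NT, 10 and 13 in DMS and 44 and 27 in CMCT, or 4.10% and 9.80%, 7.31% and 12.6%, and 16.3% and 15.7% of the coding density. The members with 0 to 16 NT stops in this class rest on few counts.

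Hnrnph1, Srsf2 and Tra2b closed the 10. Hnrnph1 had the most noncoding-only positions, 3286, with 326 and 212 RT stops in NT, 284 and 349 in DMS and 888 and 565 in CMCT. These were 6.53% and 6.82% of the coding density in NT, 5.31% and 6.46% in DMS and 9.68% and 8.43% in CMCT, so that the replicates of this gene stood close. Srsf2, a protein of nuclear speckles that limits its own mRNA through NMD, had 111 and 63 in NT, 100 and 125 in DMS and 367 and 151 in CMCT, and ratios of 4.95% to 9.67%. Tra2b, which activates exons with GAA-rich enhancers, had 14 and 12, 11 and 8, and 30 and 16, and ratios of 2.68% to 6.38%. The NT differences of the 3 genes were -3.91 ± 0.35, -4.11 ± 0.40 and -4.18 ± 0.31.

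The 5 lowest ratios belonged to Hnrnpm, Hnrnpu, Srsf11, Srsf1 and Sfrs18. For Sfrs18 only 1 transcript was listed, a processed transcript, so both classes of this gene were counted on the same noncoding isoform. Hnrnpm, a splicing regulator in the nuclear matrix, had 5 and 4 noncoding-only RT stops in NT, 1 and 3 in DMS and 11 and 6 in CMCT over 623 bases, against 1479 to 4808 at coding positions. Its NT difference was -6.49 ± 0.43. That of Srsf11 was -5.54 ± 0.36, from only 4 and 2 noncoding-only RT stops in NT. Hnrnpu, a scaffold protein of chromatin, had 74 and 51, 55 and 52, and 157 and 100 over 1651 bases, which was 1.73% to 3.10% of the coding density. Srsf1, the founding SR protein, had 8 and 5 in NT, 4 and 7 in DMS and 3 and 0 in CMCT at the retained intron chr11:87862177-87862328. Srsf9 had 0 and 0 in NT, and 7 and 12 in DMS and 6 and 2 in CMCT over 116 bases, and its coding density in NT was at least 63.1-fold higher. Of the remaining members tested, Hnrnpl differed by -4.47 ± 0.39 and Srsf5 by -4.69 ± 0.27.

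The balance between the classes was compared between treatments in the same fit. The change of the noncoding-only to coding ratio against NT passed in 0 of 18 members in DMS and 0 of 18 in CMCT, against a background of 0.0% of 2571 genes in each direction (edgeR's quasi-likelihood test). In simulated data this fit recovered 1% of 2-fold and 18% of 4-fold changes in DMS. The absence of calls therefore cannot show that the balance stayed the same. At an unadjusted p under 0.05, 5 of 18 members passed in DMS and 7 in CMCT, beside 20.8% of 2571 genes in each. The members' median log2 change was -0.19 in DMS and 0.04 in CMCT, beside -0.19 and -0.24 over all genes.

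NMD-only positions were denser than noncoding-only positions in most of the 7 members that had at least 50 single-place positions of every class. They were above in 7 and 5 of 7 members in the NT replicates, in 6 and 6 in DMS and in 7 and 7 in CMCT, whereas over all genes they were above in 111 to 133 of 237. Over the 8 members with enough NMD-only positions, the median NMD-only density was 21.5% and 19.9% of the coding density in NT, 17.3% and 16.8% in DMS and 21.3% and 14.7% in CMCT. The medians over 365 genes were 6.31% and 6.08%, 7.56% and 6.92%, and 7.25% and 5.84%. These are descriptions without a test, and the plot by class shows them gene by gene.

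**Figure D2:**
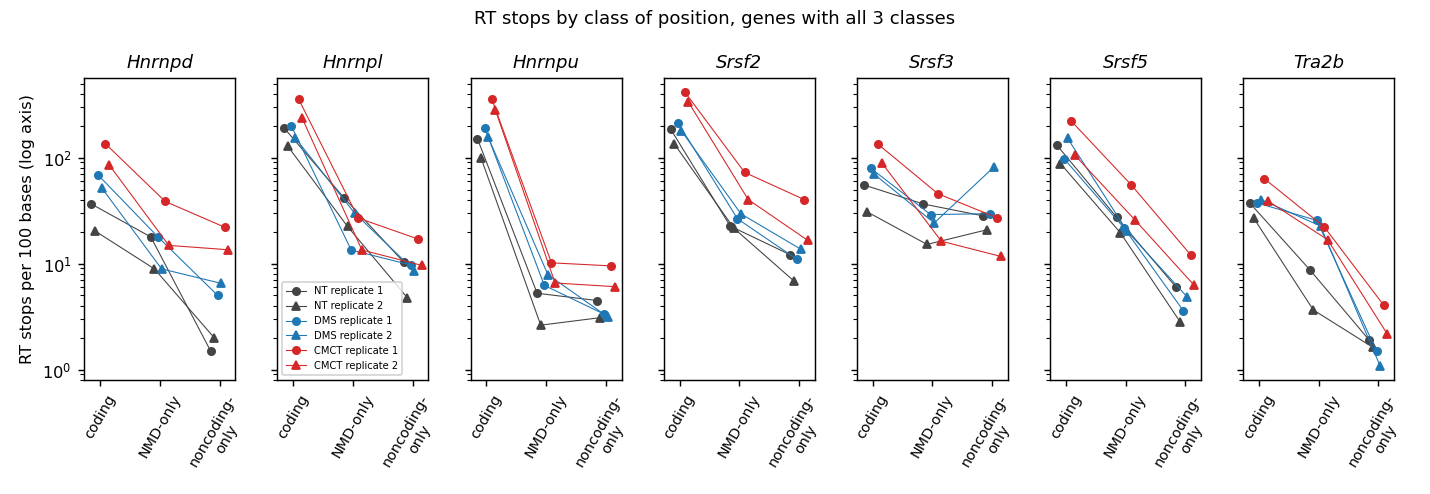
RT stops per 100 bases (y axis, log scale) at coding, NMD-only and noncoding-only positions of the 7 genes with at least 50 single-place positions of each class. Lines join the values of 1 library, colored by treatment and shaped by replicate. Values fall from coding to NMD-only in every gene and library, and they rise again at the noncoding-only class in Srsf3 (NT replicate 2 and both DMS replicates) and in Hnrnpu (NT replicate 2).

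The stretches that hold the poison exons were compared with the introns around them. In Srsf3, the NMD-only exon at chr17:29176399-29176854 had 166 and 69 RT stops in NT, 132 and 110 in DMS and 208 and 74 in CMCT, or 15.2 to 45.7 per 100 bases. The 829 and 853 single-place bases on either side, which are noncoding-only because a retained-intron isoform runs through them, had 3.26 to 14.6 and 8.44 to 26.3 per 100 bases. In Tra2b, the NMD-only exon at chr16:22259059-22259334 had 24 and 10 in NT, 70 and 62 in DMS and 61 and 46 in CMCT. The noncoding-only stretch of 361 bases on one side had 3 and 3, 2 and 3, and 4 and 4, and the 116 single-place bases on the other side had 10 and 6, 7 and 5, and 17 and 9. Thus the exon had 3.65 to 25.5 RT stops per 100 bases where the first neighbor had 0.554 to 1.11 and the second 4.31 to 14.7. The exon was denser than both in the treated libraries, but in NT it had 8.76 and 3.65 against 8.62 and 5.17 in the second. In Srsf5, the NMD-only stretch of 966 bases at chr12:82049116-82050081 had 282 and 201 in NT, 222 and 201 in DMS and 556 and 259 in CMCT, or 21.7 to 60.04 per 100 bases. The retained intron next to it had 6.08 to 27.0. In Srsf2, the NMD-only cassette at chr11:116712962-116713065 had 23 and 22, 27 and 30, and 74 and 41, again denser than the retained stretches on both sides in every library. In Hnrnph3, the NMD-only stretch of 323 bases lies in no intron and was compared with none, and it had 6 and 9, 5 and 1, and 10 and 7 RT stops, and RNA-seq had 0 alignments there.

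Noncoding isoforms were also ranked by the density over the noncoding-only positions that they hold, among isoforms with at least 50 of these. Srsf3-003, which retains introns, came first with a mean of 32.7 RT stops per 100 bases. Its range over the libraries was 11.2 to 81.1. In NT and DMS most of its stops came from the 4 positions above, which lie beside positions that are not single-place. Srsf6-003, a processed transcript with 161 such positions, followed with 22.5 and 16.1 to 36.6. Hnrnpl-010, a retained intron at chr7:29599843-29600117, had 20.6 and a range of 8.92 to 30.5. Hnrnph1-016 had 17.6 with 7.89 to 37.2, and Srsf2-003 had 16.7 with 6.89 to 40.2. These densities are not scaled for library size, so their ranges mix depth and treatment. Within single libraries the order of these 5 changed. Srsf3-003 was the densest of them in NT replicate 1, with 28.0, and Srsf2-003 in CMCT replicate 1, with 40.2.

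RT stops that lie just upstream of an exon end tell which path the read took, since a read must cross the junction. Reads that crossed by at least 8 bases were compared at positions that were single-place on every path. At 13 exon ends of 6 genes, reads that ran unspliced into a noncoding-only stretch were 25 of 573 in NT replicate 1, or 4.36% (95% Wilson interval 2.97% to 6.36%), and 3.81% (2.29% to 6.30%) in replicate 2. They were 4.01% (2.67% to 6.004%) and 7.21% (5.07% to 10.2%) in DMS, and 2.39% (1.60% to 3.57%) and 2.13% (1.27% to 3.54%) in CMCT. Intervals cover counting error only. At the AU-starting intron of Hnrnpl, 6 and 4 stops in NT, 7 and 15 in DMS and 5 and 3 in CMCT were unspliced, against 53 and 35, 44 and 31, and 94 and 75 spliced. At the Srsf2 exon end, 3 and 2, 4 and 4, and 6 and 4 were unspliced against 16 and 13, 16 and 15, and 40 and 37 spliced, or 9.76% to 21.1%.

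Junctions annotated only in noncoding transcripts took a larger share than that at a few ends. Such a junction may also occur in RNA other than the annotated noncoding transcript, which was not tested. At 7 ends of 5 genes, the noncoding-only junction took 16.1% and 24.3% of the stops in NT, 19.8% and 20.4% in DMS and 16.8% and 23.3% in CMCT. Most came from the Hnrnph1 end shown above, where the exon after position 50196816 was skipped to a start at 50197333 in 17 and 17 stops in NT, 35 and 35 in DMS and 31 and 33 in CMCT, against 38 and 30, 68 and 85, and 64 and 48 on coding paths. The share of this junction at the end thus lay between 29.2% and 40.7% in all 6 libraries. At the Hnrnpm end, 3 and 3, 7 and 3, and 24 and 16 stops took the noncoding-only junction, against 8 and 4, 42 and 25, and 29 and 15. The 623 noncoding-only bases of Hnrnpm had only 5 and 4, 1 and 3, and 11 and 6 stops. The junction counts are therefore not a measure of its noncoding isoforms. At 7 ends of 6 genes, NMD-only junctions took 8.06% and 4.76% in NT, 9.39% and 8.76% in DMS and 14.4% and 11.7% in CMCT. At the Srsf1 end, the NMD-only junction to an exon at position 87863479 had 11 and 2 stops in NT, 14 and 4 in DMS and 20 and 8 in CMCT, against 61 and 38, 65 and 45, and 119 and 67. At the Hnrnpd end, the NMD-only junction had 2 and 2, 7 and 10, and 36 and 24, against 2 and 0, 10 and 11, and 13 and 8. This end, counted at 6 positions, gave 36 of the 63 and 24 of the 39 NMD-only junction stops in CMCT. The higher pooled share in CMCT therefore rests largely on it.

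RNA-seq gave a second measure of the same classes. The noncoding-only positions of 15 members had 30.6% of the coding density when pooled (95% interval 29.7% to 31.5% for counting error), with a median of 27.1%. Over 2390 genes the pooled value was 8.21% and the median 7.35%. The library is not stranded and holds no alignments that cross a junction, so antisense RNA and unspliced precursor also count here. The level over noncoding-only positions was therefore set beside that over introns outside every annotated exon of the same gene, which had a median of 10.3% of the coding density. In 11 of 14 members the noncoding-only level was above that of the other introns, with a median ratio of 2.08 and a range of 0.360 to 5.27. Srsf2 gave no ratio, since its other introns had 0 alignments over 56 bases. The same count was not made over all genes, so it cannot be called particular to the members.

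**Figure D3:**
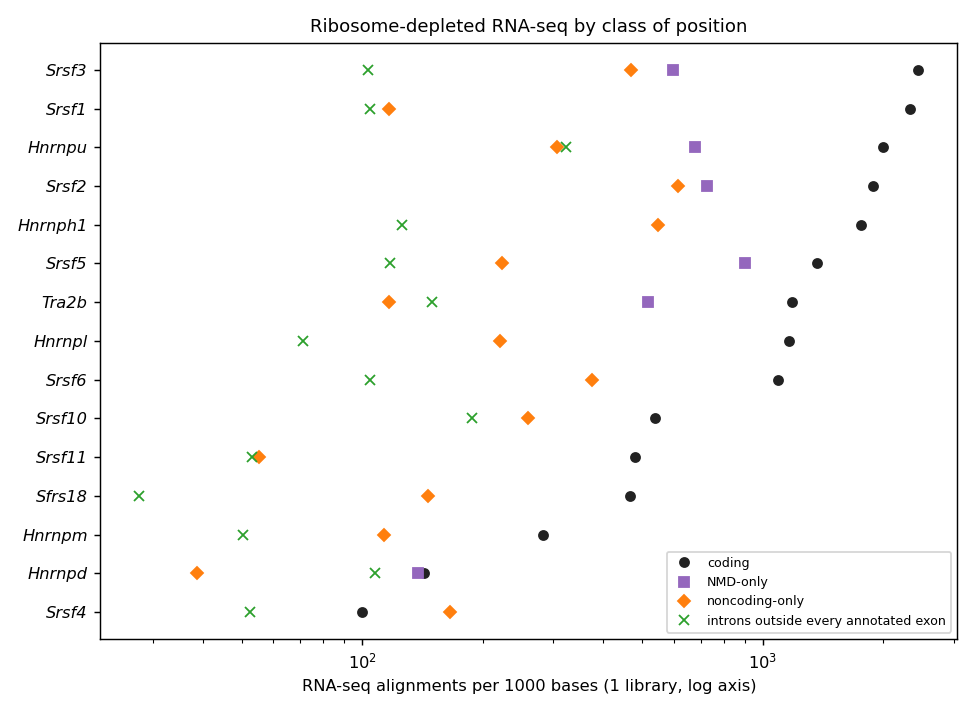
RNA-seq alignments per 1000 bases (x axis, log scale, 1 library) at coding, NMD-only and noncoding-only positions and in introns outside every annotated exon, for the 15 genes with enough bases of the coding and noncoding-only class. Coding positions are highest in all but Srsf4, whose noncoding-only exon had 165 alignments per 1000 bases against 99.7 at coding positions. The other introns of Srsf2 had 0 alignments over only 56 bases and are not drawn.

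By gene, Srsf3 had 2446 alignments per 1000 bases at coding, 597 at NMD-only and 470 at noncoding-only positions and 103 in other introns. Srsf2 had 1879, 727 and 614 at coding, NMD-only and noncoding-only positions, where the NMD-only value rests on 55 bases. Hnrnph1 had 1754 at coding and 547 at noncoding-only positions against 126 in other introns. Srsf5 had 1367 at coding, 903 at NMD-only and 224 at noncoding-only positions. Tra2b had 1182, 515 and 117, where other introns had 150, so that its noncoding-only exons did not stand above its introns. The same was true of Hnrnpu, with 306 and 322, and of Hnrnpd, with 38.7 and 107. Across the 15 genes, the ratios from RNA-seq and from RT stops had a Spearman correlation of 0.329 to 0.564 by library, given as a description, since both rest on the same annotation and base composition. The pooled ratio of RNA-seq lay far above the RT stop ratio, and the reason was not tested.

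Levels of the genes were compared per base. SR protein genes had a median of 30.2 and 30.0 RT stops per 1000 bases and 1000000 scaled stops in NT, 29.4 and 29.0 in DMS and 33.3 and 29.3 in CMCT. hnRNP genes had 55.5 and 51.7, 60.9 and 55.3, and 61.5 and 68.8, and all genes tested had 23.2 to 25.1. In RNA-seq the order of the families was the other way round, with medians of 1094 alignments per 1000 coding bases for SR protein genes, 761 for hnRNP genes and 186 for all genes. These levels rest on unlike positions, since RT stops were taken over all classes of a gene and RNA-seq over coding positions only. Srsf5 in NT replicate 1, for example, had 38.4 RT stops per 100 bases over the gene and 131 at coding positions. Among SR protein genes, Srsf3 (2446), Srsf1 (2334), Srsf2 (1879), Srsf5 (1367) and Tra2b (1182) led in RNA-seq. Among hnRNP genes, the leading 5 were Hnrnpf (4597), Hnrnpk (4330), Hnrnpa1 (3025), Hnrnpu (1998) and Hnrnph1 (1754), which bind G tracts, C-rich RNA, UAG-like motifs, chromatin-associated RNA and G-rich RNA, respectively. At the low end were Hnrnph3 with 50.1, Srsf4 with 99.7 and Hnrnpd with 143. Over 31 genes the Spearman correlation of RNA-seq with RT stops per base was 0.389 to 0.535 by library, and for several leading genes few positions were single-place, 8.36% for Hnrnpa1, 25.6% for Hnrnpf and 38.8% for Hnrnpk.

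RT stops per gene were compared between treatments. In DMS against NT, 1 of 32 members was higher and 0 lower (edgeR's quasi-likelihood test, adjusted over 11279 genes), while 6.46% of all genes were higher and 2.81% lower. At an unadjusted p under 0.05, 6 members passed, 5 of them higher, beside 30.5% of all genes, and DESeq2 called 3 higher and 0 lower, beside 10.2% and 6.24%. The member past the threshold was Hnrnpa3, with 49 and 31 RT stops in NT and 150 and 112 in DMS. Its log2 change was 1.31 ± 0.25 (SE, n = 2 libraries per treatment; edgeR adjusted p = 0.0300). It rests on 463 single-place positions, of which 370 lie in the 3′ UTR. The adjusted p was 0.143 without NT replicate 1, 0.140 without NT replicate 2, 0.0783 without DMS replicate 1 and 0.0518 over all positions.

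In CMCT against NT, 1 of 32 members was higher and 0 lower, against 4.58% higher and 1.35% lower of all genes. At an unadjusted p under 0.05, 10 members passed, all of them higher, beside 27.4% of all genes in either direction. DESeq2 called 4 higher, namely Hnrnpd, Hnrnpr, Hnrnpu and Hnrnpul2, and 0 lower, beside 8.45% and 7.74%. Hnrnpd had 1642 and 917 RT stops in NT, 3055 and 2309 in DMS and 6066 and 3839 in CMCT. Its log2 change in CMCT was 1.33 ± 0.20 (edgeR adjusted p = 0.0191), with adjusted p = 0.0999 and 0.113 when NT replicate 1 or 2 was left out. Scaled for library size, it had 27.3 and 22.6 RT stops per 1000 bases and 1000000 scaled stops in NT and 61.5 and 64.3 in CMCT. Before scaling, its coding sequence had 119 and 60.7 RT stops per 100 bases in NT and 480 and 285 in CMCT, and its 3′ UTR had 6.59 and 5.55, and 23.1 and 17.7. In DMS against CMCT, 0 members were higher and 0 lower, where 2.15% and 3.6% of all genes were (edgeR). At an unadjusted p under 0.05, 7 members passed, 1 of them higher in DMS, beside 21.7% of all genes, and DESeq2 called 2 lower, Srsf2 and Hnrnpu, beside 6.35%.

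**Figure D4:**
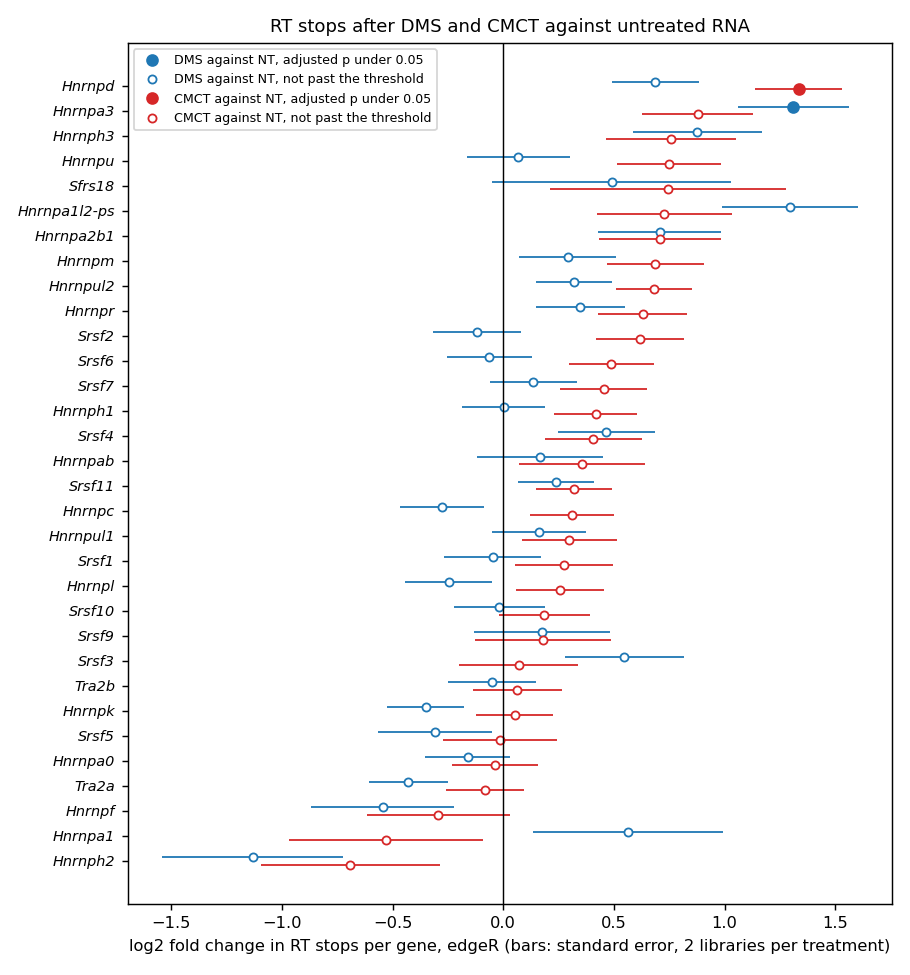
Log2 fold change in RT stops per gene (x axis) in DMS and in CMCT against NT for the 32 genes, with the standard error from edgeR as bars and filled points where the adjusted p was under 0.05. In CMCT, 26 of 32 points lie above 0 with a median of 0.34, and in DMS 19 lie above 0 with a median of 0.15.

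The members' median log2 change was 0.15 in DMS and 0.34 in CMCT, beside 0.05 and 0.04 over all genes. The DMS median turned to -0.02 without NT replicate 2, with 14 of 32 members above 0, and to -0.03 over all positions, whereas that of CMCT stayed between 0.26 and 0.48 in every alternative run. The comparisons share the NT libraries, so they are not independent of each other. After scaling, both CMCT libraries lay above both NT libraries in 21 members and below in 1, Hnrnph2, and 31.6% and 28.0% of all genes did so. Both DMS libraries lay above both NT libraries in 11 members and below in 9, against 35.2% and 30.2% of all genes. Hnrnph2, an X-linked relative of Hnrnph1, had 1585 and 1336 RT stops in NT, 1180 and 638 in DMS and 2422 and 724 in CMCT, which became 52.8 and 65.7, 34.0 and 20.0, and 49.1 and 24.3 per 1000 bases and 1000000 scaled stops. Its position chrX:131137845 in the 5′ UTR alone held 20.8% of its stops.

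By base, A stood highest after DMS and U after CMCT at the coding positions of these genes, while C in DMS and G in CMCT did not stand above the other bases in both replicates. After scaling, DMS gave 2.59 and 3.30 times the mean NT level at A and 1.04 and 0.712 times at C, against 0.710 and 0.717 at G and 0.772 and 0.525 at U. Over all genes the values at A were 1.84 and 2.26. CMCT gave 1.60 and 1.87 times the NT level at U and 0.921 and 1.13 at G, against 1.20 and 1.40 at A and 1.01 and 1.15 at C. Over all genes the values at U were 1.11 and 1.07. These are descriptions, and no test was made.

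At noncoding-only positions, A again stood highest in DMS and U in CMCT, with a wider spread between replicates of DMS. DMS gave 1.4998 and 4.32 times the NT level at A and 0.760 and 1.06 at C, and CMCT gave 1.77 and 1.62 at U and 1.48 and 1.42 at G. Without the Srsf3 intron, the DMS values at A were 1.70 and 2.92 and the CMCT values at U were 1.93 and 1.77. At NMD-only positions, DMS gave 1.45 and 2.31 at A, and CMCT gave 1.52 and 1.20 at U. The folds of DMS at A were above those at every other base in both replicates and in each class.

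**Figure D5:**
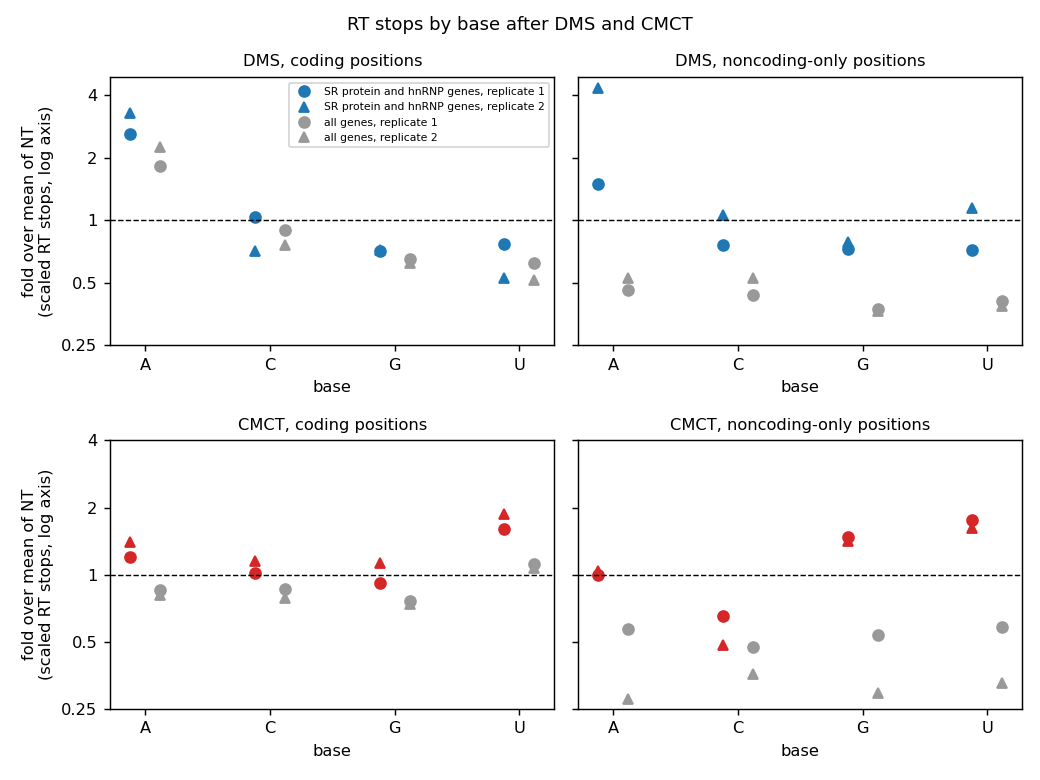
RT stops in DMS (upper panels) and CMCT (lower panels) over the mean of the NT libraries (y axis, log scale, scaled by library) at A, C, G and U, for coding positions (left) and noncoding-only positions (right). Colored points are the SR protein and hnRNP genes and grey points all genes, with circles for replicate 1 and triangles for replicate 2, and the dashed line marks the NT level. At coding positions A stands highest in DMS (2.59 and 3.30) and U in CMCT (1.60 and 1.87), while over all genes the noncoding-only points lie below 1.

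At single positions, counts of treated libraries were set beside NT. Among coding positions with at least 10 stops in each NT library, the 2 A with the largest ratio of the lower DMS to the higher NT library lay in the coding sequences of Hnrnpa2b1 and Hnrnpab, and the U with the largest such ratio in CMCT lay in that of Hnrnpu. The position is in capitals.
Hnrnpa2b1, A (chr6:51416561-51416590, minus strand): gauacuauugaaAuaauuaccgauaggcag
Hnrnpab, A (chr11:51414949-51414978, minus strand): caggguaguacaAauuacggaaagagccag
Hnrnpu, U (chr1:180261562-180261591, minus strand): gcaaauggcagaUacuggaaaacugaacac
The A of Hnrnpa2b1, at position 51416578, had 13 and 13 RT stops in NT, 26 and 24 in DMS but 80 and 67 in CMCT, so that CMCT, which is not known to modify A, gave the highest counts there. The A of Hnrnpab, at position 51414966, had 15 and 17 RT stops in NT, 30 and 35 in DMS and 15 and 7 in CMCT. After scaling, the lower DMS library was 1.17 times the higher NT library at the A of Hnrnpa2b1 and 1.04 times at that of Hnrnpab, so DMS stood little above NT at these single positions. The U of Hnrnpu, at position 180261579, had 20 and 17 in NT, 23 and 19 in DMS and 186 and 174 in CMCT, and after scaling the lower CMCT library was 4.51 times the higher NT library. In Srsf1, a U in the 3′ UTR at chr11:87864193 had 13 and 13, 32 and 33, and 129 and 128. These positions were chosen for their ratios and are a description.

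Along the mRNA, RT stops were denser in the coding sequence than in the 3′ UTR in most members. Over 26 members with at least 50 positions in each, the median log2 ratio of 3′ UTR to coding sequence was -2.03 and -1.87 in NT, -2.02 and -1.80 in DMS and -1.64 and -1.82 in CMCT, where all genes had -0.74 and -0.53, -0.80 and -0.74, and -0.71 and -0.65. The 3′ UTR was the denser part in 1 to 4 of the 26, beside 1557 to 2023 of 5765 genes. Srsf2 was an exception, with 218 and 162 RT stops per 100 bases in the 3′ UTR and 138 and 92.7 in the coding sequence in NT. For the 5′ UTR the medians ran from -1.75 to -0.63 in the members and from -0.95 to -0.05 in all genes. The 5′ UTR was the denser part in 6 and 11 of 26 members in NT and in 3 to 5 in the treated libraries. Over all genes it was the denser part in 2125 and 2626 of 5377 in NT and in 1330 to 1851 in the treated libraries. Because coding positions hold the long 3′ UTRs, these differences enter the coding level to which the noncoding-only level was compared.

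Positions left out as not single-place held large counts, some nearly equal between replicates. In the retained stretch of Srsf2, a U tract at chr11:116712539 had 5233 and 4943 RT stops in NT, 1249 and 1331 in DMS and 1856 and 1189 in CMCT. In the 3′ UTR of Hnrnpl, position chr7:29606997 before a U tract had 4132 and 4132, 1087 and 1087, and 1073 and 1073, and its following bases occur at 8 places. In the 3′ UTR of Srsf10, chr4:135424522 had 1595 and 1595, 563 and 563, and 528 and 528, with 64 places. Among members' positions with at least 1000 stops over both replicates, counts were equal within 1 stop at 47 of 60 in NT, 26 of 35 in DMS and 19 of 33 in CMCT. No single-place position of the members reached that sum in any treatment. At sums of at least 50, single-place positions were equal within 1 at 7.77%, 11.7% and 8.64%, and the others at 24.9%, 18.6% and 16.0%. How such reads were assigned is not given in the sources used here.

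Other genes of the splicing pathway were counted by lists. Of 5 SR protein kinases, 6 factors of 3′ splice site recognition, 12 proteins of the U1 and U2 snRNPs and 5 NMD factors that were tested, 0 changed in DMS and 0 in CMCT against NT (edgeR). At an unadjusted p under 0.05 the numbers in this order were 1, 1, 1 and 2 in DMS and 1, 3, 3 and 3 in CMCT, where 30.5% and 27.4% of all genes passed, and DESeq2 called 0 in DMS and 0, 1, 1 and 2 in CMCT, all higher. Of 20 other splicing regulators, 0 were higher and 1 lower in DMS, and 2 were higher and 1 lower in CMCT, while 4 and 8 had an unadjusted p under 0.05 and DESeq2 called 2 lower in DMS and 4 higher and 1 lower in CMCT. Over all genes, edgeR called 6.46% higher and 2.81% lower in DMS and 4.58% and 1.35% in CMCT, and DESeq2 called 10.2% and 6.24%, and 8.45% and 7.74%. The genes called by edgeR were Srrm1, a coactivator of SR proteins (0.95 ± 0.19 in CMCT), Syncrip, an hnRNP-like RNA-binding protein (1.00 ± 0.18 in CMCT), and Mbnl1, a regulator of developmental splicing (-1.32 ± 0.24 in DMS and -1.32 ± 0.23 in CMCT). In the test of classes in NT, noncoding-only positions were lower in 3 of 4 kinases, 2 of 2 factors of the 3′ splice site, 7 of 7 snRNP proteins, 10 of 10 other regulators and 1 of 1 NMD factor, where 74.9% of all genes were lower. The kinase that was not lower was Clk2, with 0.96 ± 0.53 (edgeR adjusted p = 0.115), and Clk4 was the least lower of the other 3, with -1.46 ± 0.31.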

How the data were processed

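The authors treated a deproteinized lysate of E14 mouse ESCs, depleted ribosomal RNA, primed reverse transcription with random hexamers and mapped reads to mm9 carrying E14 variants. Per the labels, Bowtie 1.0.0, TopHat2 2.0.6, bedtools 2.17.0 and FastQC 0.10.1 were used. The deposited CIRS-seq files hold raw counts of RT stops per transcript position, and files that pool both replicates were not used. The deposited RNA-seq file holds 31857551 alignments of 50 bases, which were counted here by their midpoint at positions where such an alignment lies in 1 class. Each genomic position was counted once per gene. The self-test on simulated data was run after the main fits, from whose means and spread the data were drawn, and before the alternatives. For RT stops per gene in DMS it recovered 18.2% of 2-fold and 89% of 4-fold changes. RT stops per gene were tested with edgeR 4.0.16 (R 4.3.3) by quasi-likelihood over all genes, with TMM scaling, filterByExpr and 1 term for treatment. Noncoding-only and coding counts were tested in 1 fit with a term for each library and offsets for positions and library size. Benjamini-Hochberg adjusted p under 0.05 was the threshold, and SE is the log2 difference divided by the root of F. Python 3.11.15, numpy 2.4.6, pandas 2.3.3 and scipy 1.17.1 were used otherwise. Sequences were read from the NCBIM37 genome. Regions were compared with a pseudocount of 0.5. With 2 libraries per treatment, the spread behind the p-values was estimated from all 6 CIRS-seq libraries in 1 fit, with information shared between genes. It therefore also includes replicates of a treatment outside the comparison.

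Genes were named by rule: members past a threshold (up to 10 in each direction), the 5 SR protein and 5 hnRNP genes highest in RNA-seq, the 10 highest and 5 lowest ratios of noncoding-only to coding density and the 5 densest noncoding isoforms. Others were chosen after their values were seen. The members and lists were chosen with earlier results of these data known. Alternatives were all positions, a cap of 20 stops per position, no filter, DESeq2 1.42.0 and its size factors, a replicate block, preferred bases, NMD-only positions joined, introns only, other placings of alignments and leaving out each library.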

Additional observations from a re-analysis of the deposited data

How the results depend on the processing

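Of the members, 1 was higher in DMS and 1 in CMCT, and these counts depended on the setting. The count for DMS was 3 with a replicate block, 2 without the filter on low counts, 5 with each position counted at most 20 times, 3 with DESeq2 and 0 to 4 when a library was left out. For CMCT it was 6 over all positions, 4 with the cap of 20, 4 with DESeq2 and 0 to 4 when a library was left out. Without NT replicate 1 or NT replicate 2 both counts were 0, and without NT replicate 2 no gene of 11392 was called in DMS. The share of all genes higher and lower in DMS also moved to 16.8% and 15.1% without CMCT replicate 1, to 12.9% and 13.9% without CMCT replicate 2 and to 0.0526% and 0.395% without NT replicate 1. Members lower numbered 4 in DMS and 3 in CMCT over all positions, where 12.5% and 13.9% of all genes were lower, and 0 to 1 when a library was left out. All genes higher in DMS were 11.3% with the replicate block, 10.4% without the filter, 8.69% with the cap and 10.2% with DESeq2, and in CMCT 15.0% over all positions, 6.68% with the cap and 8.45% with DESeq2. Between DMS and CMCT, 1 member was higher with the replicate block and 1 with the cap, and 2 were lower with DESeq2, beside 4.53%, 5.09% and 6.35% of all genes. Same-numbered libraries correlated in their deviations by 0.417 for NT and DMS, but by 0.0145 for NT and CMCT and 0.0337 for DMS and CMCT, so the numbers were not taken to pair the libraries throughout. Noncoding-only positions were lower in NT in 16 members with the replicate block, where Srsf4 lost its call (-0.62), and in 15 to 17 when a library was left out, beside 74.4% and 69.3% to 74.9% of all genes. Over all positions 3 members were higher, beside 43.5% of all genes, and the difference turned to 0.49 in Hnrnph1, 1.94 in Sfrs18, 5.91 in Srsf2 and 1.19 in Srsf3. The ratio changed downward in 2 members in DMS and 3 in CMCT over all positions, beside 2.19% and 4.24% of all genes. Srsf3 passed as lower with the cap (-1.63). The median ratio, 5.28% in NT, 5.80% in DMS and 6.63% in CMCT as means of both replicates, was 14.6%, 9.44% and 11.9% over all positions. With the cap it was 5.98% in NT and 8.20% in CMCT, and with 1 replicate 5.01% to 5.27% in NT, 4.99% to 6.38% in DMS and 5.70% to 6.39% in CMCT. The SR to hnRNP ratio of median RT stops per base, 0.517 in NT, 0.465 in DMS and 0.475 in CMCT, was 0.564 in NT with the cap, 0.637 and 0.620 in DMS and CMCT over all positions, and 0.545 to 0.580, 0.483 to 0.524 and 0.427 to 0.541 with 1 replicate. The pooled RNA-seq ratio of 30.6% was 34.4% with alignments placed by their first base, 33.3% at single-place positions, 28.6% without overlap with another gene's exons and, in an alternative chosen after seeing the data, 39.3% over all positions of each class. The cause of these shifts was not tested. Few counts limit Hnrnpr, Hnrnpa3, Srsf9, Srsf1, Sfrs18, Srsf11, Hnrnpd and Hnrnpm.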
